A study of Homo sapiens with 24 samples.

Results

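The genes described here are 55 whose products build or run mitosis: the centromere and kinetochore, the spindle checkpoint, the mitotic kinases and cyclins, the anaphase machinery, condensin and topoisomerase IIα, and the spindle and cytokinesis apparatus. They were chosen by symbol from the raw count tables, 55 of the 26364 genes listed, and all 55 passed the filter on low counts in every comparison, with at least 96 counts in every library. The study used RNA-seq to ask how miRNAs that differ in estrogen receptor (ER) mutant breast cancer cells alter gene expression. T-47D is an ER-positive luminal breast cancer cell line, and its endogenous ESR1 gene, which encodes ER, was either WT or mutated on 1 of the alleles, to Y537S or to D538G in the ligand-binding domain. Each genotype was represented by 2 clones, and every library is 1 clone under 1 condition, so a genotype is only as general as its clones. All cells were kept in hormone-deprived medium and transfected at 10 nM, with RNA taken at 24 h. Y537S cells received a mimic negative control, a miR-301b mimic, a miR-331 mimic, an inhibitor negative control or a let-7f inhibitor. D538G cells received the mimic negative control or a mimic of miR-301b or miR-181c. WT cells received the mimic negative control or a mimic of miR-301b, miR-331 or miR-181c. A mimic is a synthetic double-stranded RNA that supplies the mature miRNA, and an inhibitor binds the endogenous one and keeps it from its targets.

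At mitosis, the kinetochore is assembled on centromeric chromatin marked by the histone variant CENPA and ties each chromosome to spindle microtubules through the NDC80 complex. Unattached kinetochores keep the spindle checkpoint on, which holds back CDC20 and thereby the anaphase-promoting complex. Most of these mRNAs are made in G2 and M phase, under FOXM1 and MYBL2 with the MuvB proteins, through promoter elements called CHR and CCAAT boxes, so in bulk RNA their summed level follows how many cells of a culture are cycling. In these libraries, fewer cells in G2 and M phase and less mRNA per such cell cannot be told apart.

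The 24 libraries of 12 conditions held 31379962 to 50526442 counts. Levels are given as CPM, reads of a gene scaled to a library of fixed size, on TMM-normalised library sizes. The 8 luminal markers summed to 8878 to 14245 CPM in every library. Among markers of other cells, PTPRC, PECAM1, KRT5 and KRT14 did not exceed 0.357 CPM and VIM did not exceed 1.95 CPM, whereas COL1A1 was at 47.3 to 81.0 CPM in all libraries. COL1A1 rose in WT cells with miR-301b (log2 0.41, edgeR adjusted p = 0.0242) and miR-331 (log2 0.33, edgeR adjusted p = 0.0191). Libraries of 1 genotype are also the libraries of 1 count table and of 1 pair of clones, so genotype, clone and table cannot be told apart. In the mimic control, 51 of 55 genes were higher in clone 1 than in clone 2 of Y537S cells and 54 of 55 were higher in clone C2 than in clone A5 of D538G cells, against 20 higher in clone D1 than in clone D4 of WT cells. Over the genes above 1 CPM in both clones, 44.8% were higher in clone 2, 52.4% in clone C2 and 50.1% in clone D4.

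Mature sequences of the miRNAs are shown because their seed, bases 2 to 8 in capitals, sets which 3′UTRs can pair with them. They are from RefSeq (GRCh38.p14), 5′ to 3′.
hsa-miR-301b-3p: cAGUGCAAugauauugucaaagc
hsa-miR-331-3p: gCCCCUGGgccuauccuagaa
hsa-miR-181c-5p: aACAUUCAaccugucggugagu
hsa-let-7f-5p: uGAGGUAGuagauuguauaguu
The 4 seeds differ from each other. For miR-301b, miR-331 and let-7f, a smaller share of mitotic genes than of all genes held the 7-base complement of the seed in the 3′UTR. No test was made, and 3′UTR length, 58 bases (PTTG1) to 6632 bases (BUB3) among the 55, was not taken into account. TTGCACT, the miR-301b site, was in 3 of 55 genes (CENPO, CCNA2 and NCAPD2), 5.46%, against 16.0% of the genes tested in Y537S cells with a 3′UTR. CCAGGGG, the miR-331 site, was in 2 genes (CENPA and CENPO), 3.64% against 15.5%. CTACCTC, the let-7f site, was in 4 genes (AURKB, CDCA8, AURKA and ESPL1), 7.27% against 10.9%. TGAATGT, the miR-181c site, was in 12 genes, 21.8% against 21.3% of the genes tested in D538G cells. These 12 were CENPI, CENPO, BUB3, INCENP, BIRC5, CDK1, CCNB1, NCAPG, NCAPH, TPX2, GAS2L3 and G2E3, with 3 sites in BUB3. Among genes that fell with a mimic, 2 held the site of that miRNA, CCNA2 with miR-301b in Y537S cells and GAS2L3 with miR-181c in WT cells. The site of each is shown with its surroundings from the GRCh37 genome, taken from the 3′UTR of 1 reference transcript per gene, with the complement of the seed in capitals.
CCNA2, chr4:122737929-122737957, minus strand: tttttcttgttTTGCACTggtggtctgtg
GAS2L3, chr12:101018694-101018722, plus strand: aaaaggaagaaTGAATGTgttagcttcac
The annotation used for these sites is not the one on which the counts were made.

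Mitotic genes were expressed far more in the ER mutant clones than in the WT clones. In the mimic control libraries, all 55 were higher in Y537S than in WT cells at an adjusted p under 0.05 in edgeR's quasi-likelihood test, where 16.3% of the genes tested were higher. Their median log2 fold change was 1.77, against 0.00 over all genes. In D538G cells, 54 of 55 were higher than in WT cells, where 20.4% of all genes were higher, with a median of 1.39. WT and mutant clones did not overlap for any of the 55 in either comparison, but the share of all genes without overlap is not given here.

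The largest difference in Y537S cells was in CCNB2, the B-type cyclin partner of CDK1, at 28.4 and 32.2 CPM in the WT clones and 172 and 129 CPM in the Y537S clones (log2 fold change 2.34 ± 0.15 (SE), adjusted p = 0.000124). CCNB2 was at 102 and 124 CPM in the D538G clones. The lower Y537S clone was still above the higher D538G clone. The largest difference in D538G cells was in PRC1, which cross-links antiparallel microtubules of the central spindle, at 59.9 and 63.8 CPM in WT and 232 and 269.8 CPM in D538G clones (log2 fold change 2.02 ± 0.09 (SE), adjusted p = 2.58e-06). PRC1 was at 317 and 243 CPM in the Y537S clones, which overlap the D538G clones.

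Among the mitotic kinases and cyclins, all 6 were higher in both mutants, with a median log2 fold change of 1.91 in Y537S and 1.55 in D538G cells. CDK1, the kinase that drives entry into mitosis, was at 96.5 and 88.9 CPM in WT, 224 and 247 CPM in D538G and 326 and 304 CPM in Y537S clones. CCNB1, its main cyclin, was at 94.4 and 100.2 CPM in WT, 250.4 and 301 CPM in D538G and 356 and 299.6 CPM in Y537S clones. For CDK1 the 3 genotypes did not overlap, and for CCNB1 the mutants overlapped each other. PLK1, which promotes centrosome maturation and kinetochore attachment, was at 38.6 and 42.3 CPM in WT, 146 and 174 CPM in D538G and 200.4 and 171 CPM in Y537S clones, log2 fold changes of 1.99 and 2.23. AURKA, the spindle pole kinase, was at 56.2 and 59.9 CPM in WT, 158 and 192 CPM in D538G and 247 and 195 CPM in Y537S clones.

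The centromere and kinetochore genes were higher by 1.56 (12 inner genes) and 1.70 (9 outer genes) in Y537S cells and by 1.38 and 1.31 in D538G cells, as median log2 fold changes. CENPA was at 6.77 and 5.69 CPM in WT, 18.0 and 21.7 CPM in D538G and 28.7 and 24.8 CPM in Y537S clones. NDC80, the microtubule-binding subunit that names its complex, was at 16.7 and 17.7 CPM in WT, 40.7 and 52.9 CPM in D538G and 65.2 and 57.2 CPM in Y537S clones. CENPE, the kinetochore kinesin that carries chromosomes to the spindle equator, was at 50.8 and 49.0 CPM in WT, 99.8 and 116 CPM in D538G and 162 and 171 CPM in Y537S clones, with no overlap between any 2 genotypes. CENPF, a large coiled-coil protein of the outer kinetochore, was the highest of the 55 in CPM, at 345 and 357 CPM in WT, 793 and 948 CPM in D538G and 1127 and 948 CPM in Y537S clones, but its transcript is also among the longest. Per kilobase of reference transcript, the highest level in WT clones was that of ZWINT, at 59.1 ± 1.27 CPM per kb (SD, n = 2), above PTTG1 at 56.8 ± 4.04 CPM per kb, which did not differ beyond its spread. In both mutants the highest per kilobase was PTTG1, the securin that inhibits separase, at 201.7 ± 40.9 CPM per kb in Y537S and 168 ± 34.5 CPM per kb in D538G clones, and CENPI was the lowest in all 3 genotypes, at 1.02 to 3.84 CPM per kb.

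All 5 checkpoint genes were higher in both mutants, with medians of 1.65 in Y537S and 1.39 in D538G cells. BUB1B, which encodes the inhibitor BUBR1, had log2 fold changes of 2.12 and 1.87 in Y537S and D538G cells. BUB3, the adaptor that brings BUB1 and BUBR1 to kinetochores, had the smallest in Y537S cells among the 55, at 75.2 and 68.4 CPM in WT and 114 and 116 CPM in Y537S clones (log2 fold change 0.71 ± 0.09 (SE), adjusted p = 0.0013). BUB1 was at 23.9 and 28.9 CPM in WT, 62.2 and 75.6 CPM in D538G and 97.1 and 86.6 CPM in Y537S clones. MAD2L1, which encodes the MAD2 inhibitor of CDC20, was at 13.1 and 12.5 CPM in WT, 31.8 and 42.4 CPM in D538G and 42.4 and 36.4 CPM in Y537S clones. TTK, the kinase MPS1 that starts checkpoint signalling, was at 22.7 and 25.1 CPM in WT, 51.8 and 67.1 CPM in D538G and 76.4 and 66.7 CPM in Y537S clones. For MAD2L1 and TTK the mutants overlapped each other and neither overlapped WT.

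Condensin subunits, which compact chromosomes, and TOP2A, which removes DNA entanglements, formed a group of 7 that was higher by a median log2 of 1.61 in Y537S and 1.39 in D538G cells. SMC4, an ATPase of both condensins, was at 236 and 225 CPM in WT, 574 and 662 CPM in D538G and 654 and 593 CPM in Y537S clones. NCAPG was at 31.8 and 33.2 CPM in WT, 84.3 and 108 CPM in D538G and 137 and 109 CPM in Y537S clones, and NCAPD2 at 51.5 and 48.8 CPM in WT, 90.6 and 100.5 CPM in D538G and 126 and 109 CPM in Y537S clones; both are condensin I subunits. TOP2A was at 219 and 223 CPM in WT, 586 and 739 CPM in D538G and 889 and 872 CPM in Y537S clones. MKI67, the proliferation marker Ki-67 that coats mitotic chromosomes, was at 192 and 206 CPM in WT, 604 and 753 CPM in D538G and 1002 and 767 CPM in Y537S clones. The 4 chromosomal passenger genes (medians 1.79 and 1.40), the 3 anaphase genes (1.86 and 1.56) and the 9 spindle, cytokinesis and proliferation genes (1.80 and 1.28) were higher likewise in Y537S and D538G cells.

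The exception was G2E3, a ubiquitin ligase named for its expression in G2 and M phase. It was at 35.1 and 32.0 CPM in WT and 37.3 and 45.2 CPM in D538G clones, a log2 fold change of 0.30 that did not pass the test (adjusted p = 0.0641), although the groups did not overlap and it passed after GC correction. In Y537S clones G2E3 was at 73.6 and 65.6 CPM and did pass (log2 fold change 1.08 ± 0.11 (SE), adjusted p = 0.000562). Y537S against D538G cells gave 7 genes higher and none lower, where 3.93% of all genes were higher, with a median log2 fold change of 0.36 over the 55. The 7 were CENPN, KNTC1, CENPE, CDK1, ESPL1, GAS2L3 and G2E3, and GAS2L3, a linker of actin and microtubules at cytokinesis, had the largest difference, at 43.5 and 61.2 CPM in D538G and 94.9 and 86.1 CPM in Y537S clones (log2 fold change 0.81 ± 0.15 (SE), adjusted p = 0.0298). No gene passed without the D538G clone A5 control library and 32 passed without the Y537S clone 2 control library, so this count rests on single clones.

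**Figure D1:**
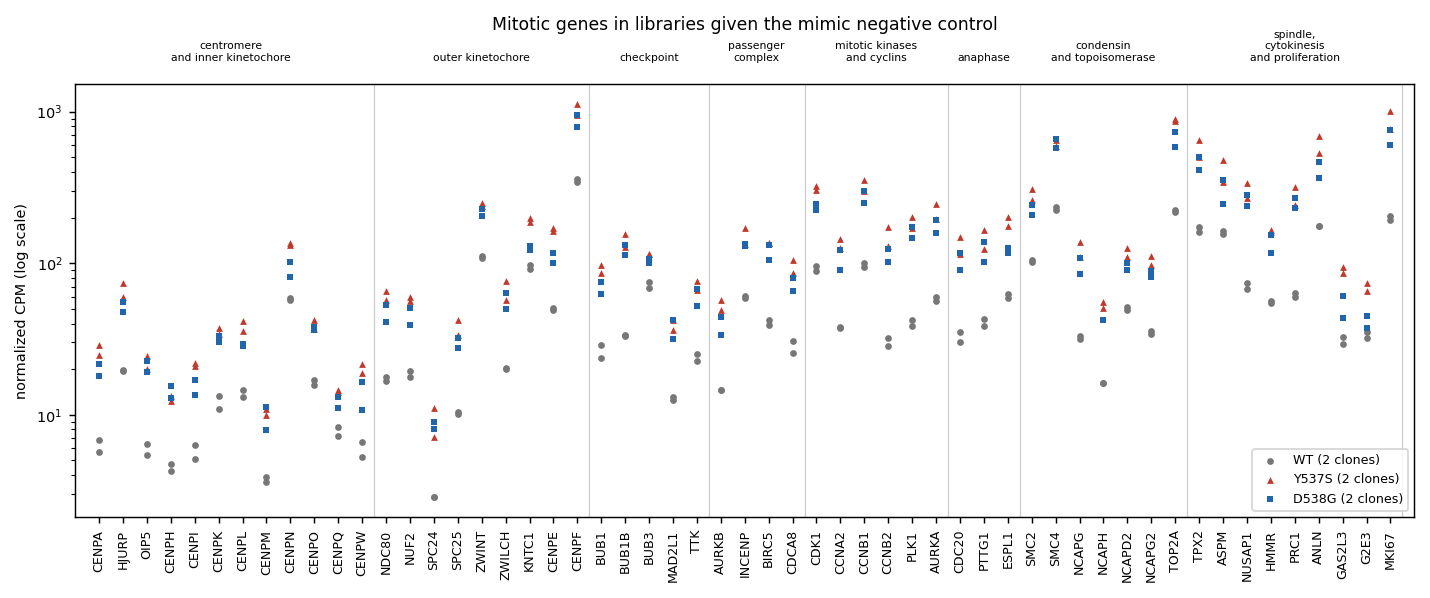
Levels of the 55 mitotic genes in the 6 mimic control libraries, in normalised CPM on a log axis, with each point 1 clone and genes ordered by role. The WT clones (grey circles) lie below both mutants (red triangles, blue squares) for all 55 genes, and come nearest to D538G at G2E3.

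Because the genes differed together between genotypes, the promoters were read for the elements that mitotic genes are known to share. RefSeq windows from 250 bases before to 50 bases after the start (GRCh38.p14) matched 46 of the 55 genes. The CHR element, TTTGAA or TTCGAA on either strand, was in 34 of 46 windows (73.9%), against 16.6% of 27305 promoters of the same length. The CCAAT box, CCAAT or its complement ATTGG, was in 33 windows (71.7%) against 35.7%, and 24 windows (52.2%) held both, against 6.58%. These letters mark no proven site. The motifs can overlap: in MKI67 and CDCA8 a CHR element shares its last base with a CCAAT box, and in HMMR and PTTG1 neighbouring CCAAT boxes overlap. Windows are shown for CCNB2 and PRC1, which differed most between genotypes, G2E3, which differed least in D538G cells, and CENPE, on which the miR-331 results below turn, with both elements in capitals.
CCNB2, chr15:59104896-59105195, plus strand: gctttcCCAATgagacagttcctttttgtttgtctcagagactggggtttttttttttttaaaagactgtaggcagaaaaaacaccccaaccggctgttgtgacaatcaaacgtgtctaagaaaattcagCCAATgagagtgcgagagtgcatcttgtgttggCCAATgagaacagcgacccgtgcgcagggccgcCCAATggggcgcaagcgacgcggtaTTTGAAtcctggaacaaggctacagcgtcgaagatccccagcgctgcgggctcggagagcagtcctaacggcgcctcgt
PRC1, chr15:90994486-90994785, minus strand: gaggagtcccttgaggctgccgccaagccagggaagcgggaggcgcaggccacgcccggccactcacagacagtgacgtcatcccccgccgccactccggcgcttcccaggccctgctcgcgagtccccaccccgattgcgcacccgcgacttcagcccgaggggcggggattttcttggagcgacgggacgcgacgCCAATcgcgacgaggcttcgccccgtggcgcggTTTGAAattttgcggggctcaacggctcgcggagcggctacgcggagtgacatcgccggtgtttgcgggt
G2E3, chr14:30558908-30559207, plus strand: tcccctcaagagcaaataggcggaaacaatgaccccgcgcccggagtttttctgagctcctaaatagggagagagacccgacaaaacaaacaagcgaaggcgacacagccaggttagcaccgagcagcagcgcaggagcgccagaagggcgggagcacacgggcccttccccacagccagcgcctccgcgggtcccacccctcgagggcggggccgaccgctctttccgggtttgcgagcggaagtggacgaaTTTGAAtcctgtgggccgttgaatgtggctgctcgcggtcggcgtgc
CENPE, chr4:103198294-103198593, minus strand: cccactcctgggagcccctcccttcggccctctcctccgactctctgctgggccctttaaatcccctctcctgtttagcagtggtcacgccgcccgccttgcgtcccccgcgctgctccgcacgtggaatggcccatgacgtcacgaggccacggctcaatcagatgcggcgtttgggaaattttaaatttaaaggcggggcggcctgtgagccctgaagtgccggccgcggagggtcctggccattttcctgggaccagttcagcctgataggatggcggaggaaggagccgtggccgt
CCNB2 had 4 CCAAT boxes and 1 CHR element 29 bases before the start. PRC1 had 1 of each, 53 and 20 bases before the start. G2E3 had a CHR element 3 bases after the start and no CCAAT, and CENPE had neither in this window.

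Other genes of the cell cycle were read from lists, which were chosen with earlier results of these data known. Over all genes, 16.3% were higher in Y537S and 20.4% in D538G cells. In either direction, 4378 of 15106 and 5818 of 14942 genes passed. Of 44 other mitosis genes, 44 were higher in Y537S and 44 in D538G cells, with medians of 1.65 and 1.20. Of 28 other kinetochore and centromere genes, 19 were higher in each mutant, with medians of 0.66 and 0.59, and 1, CENPT, was lower in D538G cells. Of 35 G1/S genes, 35 and 34 were higher, with medians of 1.17 and 0.99. Of 15 genes of the anaphase-promoting complex and its activators, 4 and 6 were higher, with medians of 0.24 and 0.27. Of 23 regulators of mitotic genes, 12 and 11 were higher and 1 and 5 lower. FOXM1 was at 51.8 and 55.5 CPM in WT, 142 and 173 CPM in D538G and 259 and 179.9 CPM in Y537S clones (log2 fold changes of 1.56 and 2.06), and MYBL2 at 106 and 126 CPM in WT, 258 and 282 CPM in D538G and 424 and 313 CPM in Y537S clones (1.23 and 1.70). Both transcription factor genes were higher in the mutants, with no overlap with WT.

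With the miRNA mimics and the inhibitor, the median log2 fold change of the 55 genes lay between -0.28 and 0.04, against 1.39 and 1.77 between genotypes. The 3 comparisons in WT cells share their control libraries, as do the mimic comparisons within each mutant.

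**Figure D2:**
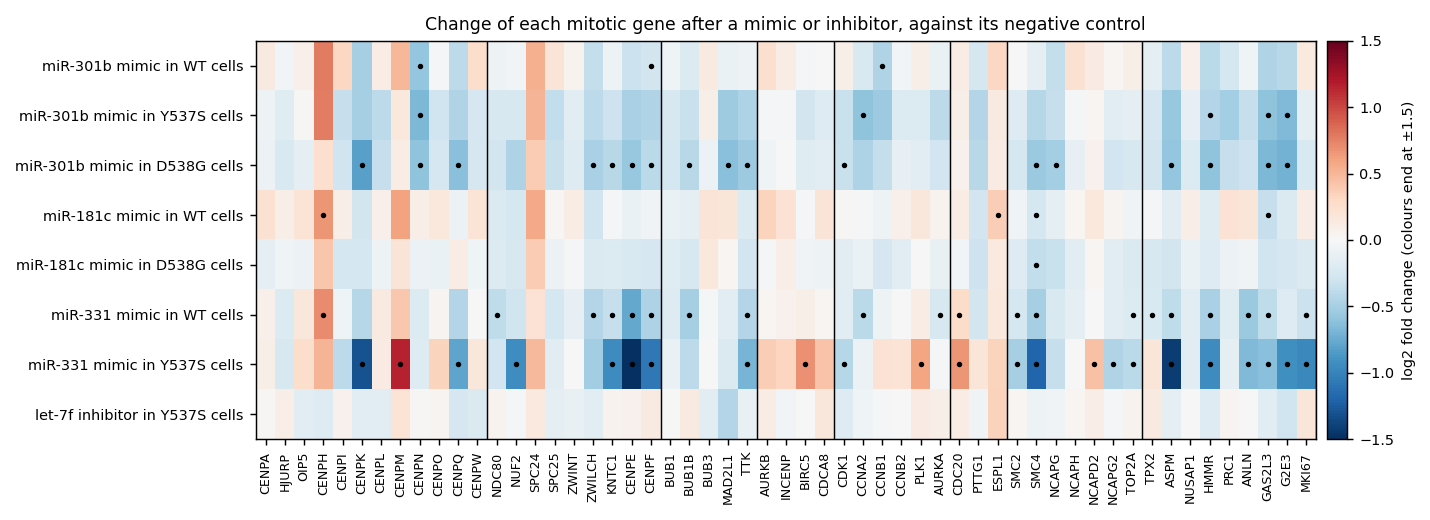
Log2 fold change of each mitotic gene (columns, ordered by role, lines between roles) in the 8 treatment comparisons (rows), against the negative control of the same genotype, with a dot where the test was passed. Most dots are in the miR-331 rows (23 genes in Y537S, 20 in WT) and the miR-301b row of D538G cells (17), and the let-7f inhibitor row has none; after correction for GC content the median of the miR-331 row in Y537S cells is 0.10, against 0.08 over all genes.

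In Y537S cells given the miR-331 mimic, mitotic genes split: 18 fell and 5 rose, where 15.8% of all genes tested fell and 17.2% rose. The median log2 fold change was -0.17, against -0.01 over all genes, and after correction for GC content it was 0.10, against 0.08 over all genes. With the clone as a block, 28 fell and 17 rose, where 60.7% of all genes passed in either direction, and with block and GC correction 13 fell and 25 rose, where 21.9% of all genes fell and 33.5% rose. Of the 23 genes, 14 passed whichever of the 4 libraries was left out.

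At the outer kinetochore, 4 of 9 genes fell. CENPE was at 162 and 171 CPM in the control clones 1 and 2 and 31.6 and 45.7 CPM with the mimic (log2 fold change -2.08 ± 0.20 (SE), adjusted p = 0.00617). This fall, to 0.24 of control, was the largest of the 55 in any treatment, and the groups were far apart. CENPF was at 1127 and 948 CPM and 445 and 524 CPM (log2 fold change -1.07 ± 0.13 (SE), adjusted p = 0.00665). NUF2, the partner of NDC80, fell by a log2 of 0.93, and KNTC1, the ROD subunit of the RZZ complex that recruits checkpoint proteins, by 0.94. NDC80 itself, at 65.2 and 57.2 CPM and 50.2 and 48.1 CPM, did not pass (log2 -0.29, adjusted p = 0.0829; it passed under the block, adjusted p = 0.00117). At the inner kinetochore, CENPK fell by 1.31 and CENPQ by 0.79, whereas CENPM, another subunit of the constitutive centromere network, rose from 10.9 and 9.96 CPM to 25.5 and 20.1 CPM (log2 fold change 1.15 ± 0.17 (SE), adjusted p = 0.00857), the largest rise. CENPA, at 28.7 and 24.8 CPM and 29.4 and 26.6 CPM, did not pass.

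The genes that rose included a kinase, an activator of anaphase and a passenger protein. PLK1 rose from 200.4 and 171 CPM to 299.9 and 249 CPM (log2 fold change 0.59 ± 0.13 (SE), adjusted p = 0.0222). CDC20 rose from 149 and 115 CPM to 231 and 179 CPM (log2 fold change 0.66 ± 0.17 (SE), adjusted p = 0.0371), and BIRC5, which encodes the passenger protein survivin, from 136 and 135 CPM to 223 and 206 CPM (log2 fold change 0.69 ± 0.09 (SE), adjusted p = 0.00738). For each of these 3 genes, both mimic libraries were above both control libraries. With 1 library left out, the log2 fold change was 0.47 to 0.75 for PLK1, 0.48 to 0.86 for CDC20 and 0.65 to 0.77 for BIRC5. The calls of PLK1 and CDC20, unlike that of BIRC5, depended on single libraries. The 5 genes that rose with this mimic were all at or above 50% GC. After GC correction 3 of the 55 rose, where 13.5% of all genes did. CDK1 fell from 326 and 304 CPM to 225 and 235 CPM (log2 fold change -0.43 ± 0.09 (SE), adjusted p = 0.0189), but turned to a rise of 0.22 after GC correction. CCNB1, at 356 and 299.6 CPM and 414 and 335 CPM, overlapped its control, as did AURKA, at 247 and 195 CPM and 226 and 199.8 CPM, and neither passed. CCNB1 passed under the block as a rise (adjusted p = 0.00051).

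Among checkpoint genes, TTK fell from 76.4 and 66.7 CPM to 45.9 and 40.5 CPM (log2 fold change -0.70 ± 0.11 (SE), adjusted p = 0.0104). BUB1, at 87.9 and 79.8 CPM, BUB3, at 116 and 109 CPM, and MAD2L1, at 34.01 and 32.6 CPM with the mimic, did not pass, with log2 fold changes of -0.10, 0.00 and -0.21. MAD2L1 passed as a fall under the block (adjusted p = 0.0263) and as a rise of 0.26 with block and GC correction. Before GC correction, condensin genes changed in both directions. SMC4 fell from 654 and 593 CPM to 248 and 288 CPM (log2 fold change -1.19 ± 0.11 (SE), adjusted p = 0.00617) and SMC2, its partner ATPase, by 0.49. NCAPD2 rose from 126 and 109 CPM to 163 and 149.5 CPM (log2 fold change 0.44 ± 0.11 (SE), adjusted p = 0.0322). The transcripts of SMC4, SMC2 and NCAPD2 are at 36.6%, 37.4% and 51.6% GC. The calls of SMC2 and NCAPD2 depended on single libraries. NCAPG, at 96.2 and 93.9 CPM with the mimic, did not pass, and TOP2A fell from 889 and 872 CPM to 606 and 697 CPM (log2 fold change -0.41 ± 0.10 (SE), adjusted p = 0.0293). SMC2 and TOP2A turned to changes of 0.04 and 0.02 after GC correction.

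Of the 9 spindle, cytokinesis and proliferation genes, 6 fell. ASPM, which organises spindle poles, went from 483 and 344 CPM to 152 and 150.3 CPM (log2 fold change -1.43 ± 0.17 (SE), adjusted p = 0.0065). MKI67 fell from 1002 and 767 CPM to 415 and 471 CPM (log2 fold change -0.97 ± 0.15 (SE), adjusted p = 0.00922), and this fall was -0.97 with and without GC correction. HMMR, a spindle protein that binds microtubules, fell by 0.94, and ANLN, the cytokinetic ring scaffold, by 0.67. GAS2L3 fell from 94.9 and 86.1 CPM to 54.4 and 60.1 CPM and G2E3 from 73.6 and 65.6 CPM to 34.5 and 37.6 CPM, log2 fold changes of -0.63 and -0.92, which were -0.09 and -0.11 with block and GC correction and no longer passed.

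With this mimic 15.8% of all genes fell and 17.2% rose. Of 27 other kinetochore and centromere genes tested, 13 fell and 6 rose (median -0.46). CENPB rose most (log2 1.07), and CENPJ, a centriole gene kept in this list, fell most (log2 -1.84). Of 44 other mitosis genes 12 fell and 6 rose (median -0.24), of 35 G1/S genes 2 fell and 7 rose (median 0.09), of 23 regulators 4 fell and 3 rose, and of the 15 genes of the anaphase-promoting complex 1 moved each way. FOXM1 did not pass (log2 0.27), and MYBL2 rose by 0.73 (adjusted p = 0.0398).

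**Figure D3:**
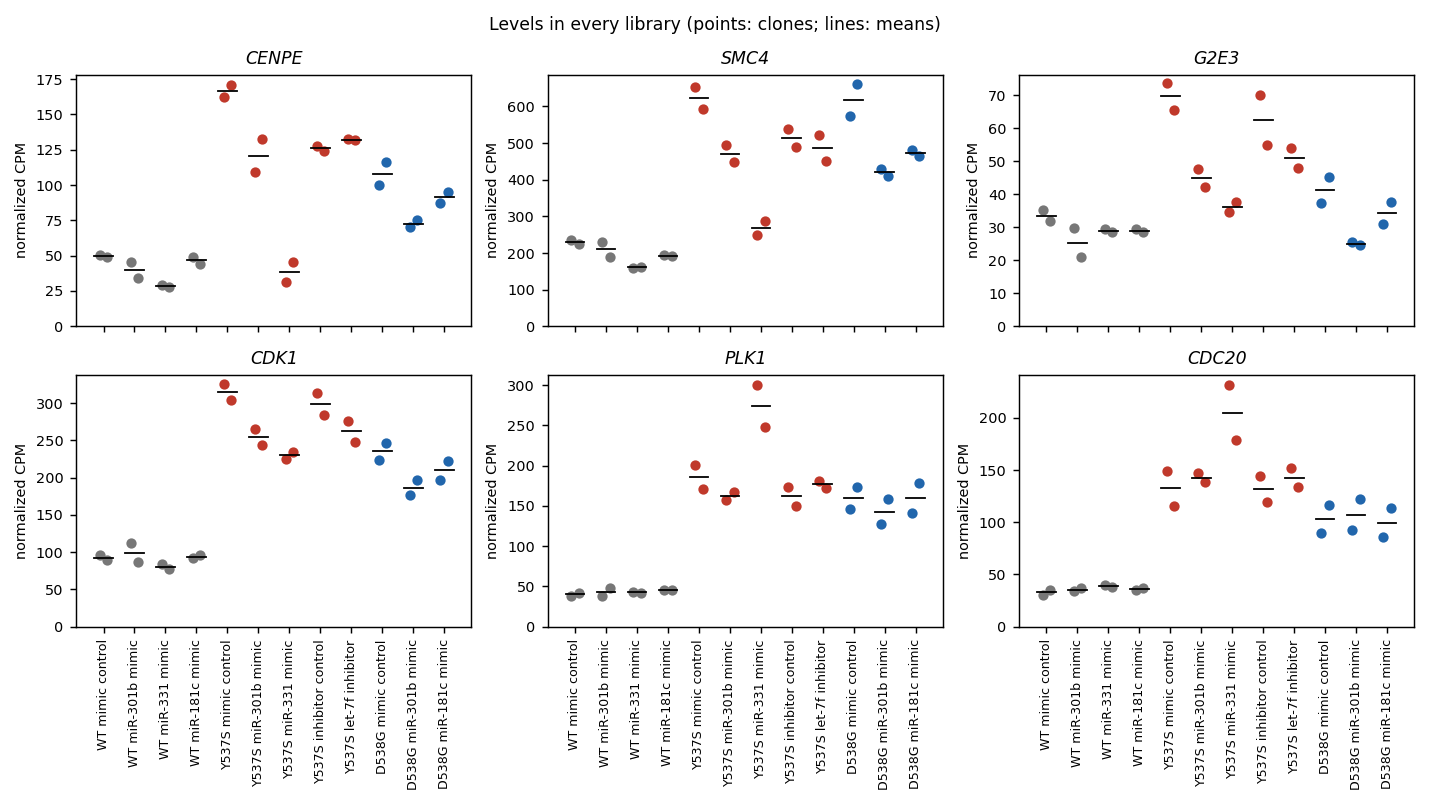
Normalised CPM of 6 mitotic genes in all 24 libraries, with 1 point per clone, a line at the mean of each condition and each axis starting at 0. CENPE, SMC4 and G2E3 are lowest among Y537S conditions with the miR-331 mimic, PLK1 and CDC20 are highest there, and every WT library of PLK1, CDC20 and CDK1 is below every mutant library; the fall of CDK1 with the miR-331 mimic in Y537S cells turned to a rise after GC correction.

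The direction of change went with base composition. The reference transcripts of the 55 genes had a median GC content of 42.1%, against 48.9% over all genes, and a median length of 3072 bases, against 3189 bases. In Y537S cells given miR-331, 14 of the 20 genes under 40% GC fell and none rose, whereas 5 of the 11 genes at or above 50% GC rose and none fell. Over all genes, 952 of 2309 under 40% GC fell and 23 rose, and 486 of 6650 at or above 50% GC fell and 2135 rose. Across the 55 genes, Spearman's rho between the log2 fold change and GC content was 0.81, and between it and transcript length -0.48, against 0.49 and -0.25 over 14199 genes, all from the same libraries. With miR-331 in Y537S cells, 10 of the 15 genes with a transcript of at least 5 kb fell and 0 rose. Over all genes of that length, 884 of 3640 fell and 308 rose. CENPE (8541 bases, 35.1% GC, on chromosome 4 at 104026506 to 104119602, minus strand, GRCh37) was among the 10. Of the 40 shorter genes 8 fell and 5 rose, where 1312 of 10559 fell and 2237 rose. The part of base composition and length in the changes was not tested beyond the correction. After GC correction alone, 8 fell and 3 rose, where 9.06% of all genes fell and 13.5% rose: CENPE kept a log2 fold change of -1.42 and SMC4 of -0.62, and MKI67, at 48.3% GC, of -0.97.

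**Figure D4:**
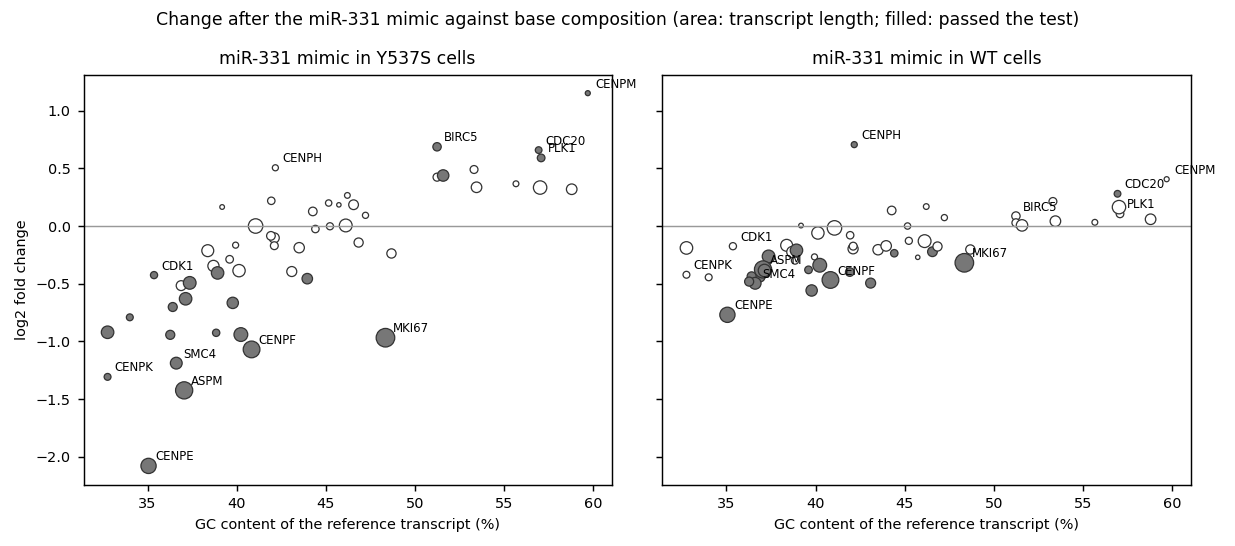
Log2 fold change of the 55 mitotic genes with the miR-331 mimic against the GC content of the reference transcript, in Y537S cells (left) and WT cells (right), with point area proportional to transcript length and filled points for genes that passed the test. Points rise from left to right in both panels (Spearman's rho 0.81 and 0.71 over 55 genes), and CENPE is the lowest point in both.

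In WT cells the miR-331 mimic lowered 18 mitotic genes and raised 2, where 10.6% of all genes fell and 14.2% rose. The median log2 fold change was -0.19, against 0.00 over all genes. COL1A1, a marker of other cells, rose in the same comparison from 51.2 and 53.9 CPM to 70.7 and 59.4 CPM, and its part in the result was not tested. With the block, 27 fell and 2 rose, where 37.0% of all genes passed. With block and GC correction 16 fell and 1 rose, where 14.8% of all genes fell and 8.1% rose. CENPE again fell most, from 50.8 and 49.0 CPM to 29.5 and 28.0 CPM in clones D1 and D4 (log2 fold change -0.77 ± 0.08 (SE), adjusted p = 0.000176). CENPF fell from 345 and 357 CPM to 247 and 251 CPM (log2 fold change -0.47 ± 0.06 (SE), adjusted p = 0.000362) and SMC4 from 236 and 225 CPM to 158 and 163 CPM (log2 fold change -0.50 ± 0.06 (SE), adjusted p = 0.000344). In all 3 genes the mimic libraries lay well below the controls. ANLN fell by 0.56, BUB1B by 0.49, HMMR by 0.48, TTK by 0.44, NDC80 by 0.38 and MKI67 by 0.32. The 2 genes that rose were CENPH, a subunit of the CENP-H/I/K/M complex, from 4.77 and 4.27 CPM to 6.98 and 7.53 CPM (log2 fold change 0.71 ± 0.18 (SE), adjusted p = 0.0151), and CDC20 (log2 fold change 0.28 ± 0.09 (SE), adjusted p = 0.049). After GC correction 7 fell and 1 rose, where 4.83% of all genes fell and 2.49% rose, and 8 of the 20 calls held whichever library was left out. The count was 8 without the clone D1 mimic library and 12 without the clone D4 mimic library. CENPA, PLK1, CDK1, BUB1, BUB3, MAD2L1, NCAPG, NCAPD2, CCNB1 and G2E3 did not pass in WT cells, with log2 fold changes from -0.22 (NCAPG) to 0.11 (PLK1).

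Whether the response to miR-331 differed between Y537S and WT cells was tested as the difference of both log2 fold changes. It differed for 11 of the 55 genes, where 9.94% of all genes passed in either direction. CENPK, NUF2, KNTC1, CENPE, CENPF, SMC4, ASPM, HMMR, G2E3 and MKI67 fell more in Y537S cells, and BIRC5 rose more. CENPE had the largest difference, -1.33 ± 0.21 (SE, adjusted p = 0.00882), followed by ASPM at -1.06 ± 0.19 and CENPK at -0.90 ± 0.22. With the block 25 genes passed, 14 of them lower and 11 higher, where 34.1% of all genes passed, and with GC correction alone 3 passed, CENPE, MKI67 and BIRC5, where 12.0% of all genes did. No gene passed without the WT clone D4 control library or the WT clone D1 mimic library, and 1 passed without the WT clone D4 mimic library. The count was 4 without the WT clone D1 control, and 5 and 7 without the Y537S clone 1 and clone 2 controls. Levels differed between these genotypes in the controls. With the mimic, CENPE in both Y537S clones (31.6 and 45.7 CPM) was below that of both WT clones with the negative control (50.8 and 49.0 CPM).

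**Figure D5:**
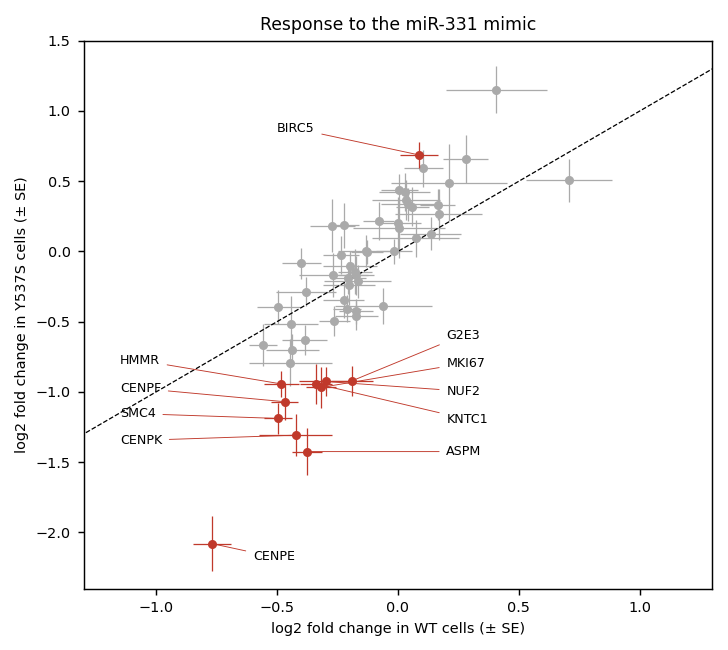
Log2 fold change with the miR-331 mimic in WT cells (horizontal) and Y537S cells (vertical), with bars of 1 SE, for the 55 mitotic genes; red points passed the test of the difference and the dashed line marks equal change. The 10 red points below the line fell more in Y537S cells, CENPE by the widest margin, and BIRC5 lies above it; with GC correction CENPE, MKI67 and BIRC5 passed.

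The miR-301b mimic lowered mitotic genes in D538G cells. In total 17 fell and none rose, where 6.49% of all genes fell and 5.29% rose, and the median log2 fold change was -0.28, against 0.01 over all genes. With the block 39 fell, where 33.3% of all genes passed. Of the 55, 48 were lower in both clones, and the share of all genes lower in both is not given here. Of the 20 genes under 40% GC 13 fell, and of the 11 at or above 50% GC 0 fell. Over all genes, 576 of 2308 and 37 of 6594 fell. GC correction left the median at -0.21 but no gene past the test, where 1.44% of all genes passed. With block and GC correction 29 were lower and 1 higher, where 9.6% and 6.97% of all genes were. CENPK fell most, from 30.4 and 32.9 CPM in clones A5 and C2 to 18.1 and 17.7 CPM (log2 fold change -0.82 ± 0.11 (SE), adjusted p = 0.00483). G2E3 fell from 37.3 and 45.2 CPM to 25.6 and 24.6 CPM (log2 fold change -0.71 ± 0.12 (SE), adjusted p = 0.00778) and GAS2L3 from 43.5 and 61.2 CPM to 32.0 and 33.6 CPM (log2 fold change -0.67 ± 0.15 (SE), adjusted p = 0.0209). These 3 genes had no overlap between mimic and control.

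Checkpoint and kinetochore genes were among the 17. MAD2L1 fell from 31.8 and 42.4 CPM to 22.3 and 25.4 CPM (log2 fold change -0.63 ± 0.15 (SE), adjusted p = 0.025), TTK from 51.8 and 67.1 CPM to 37.4 and 43.9 CPM (log2 fold change -0.54 ± 0.13 (SE), adjusted p = 0.0316), and BUB1B by 0.42. CENPE fell from 99.8 and 116 CPM to 70.3 and 75.1 CPM (log2 fold change -0.57 ± 0.10 (SE), adjusted p = 0.00936) and CENPF from 793 and 948 CPM to 622 and 689 CPM (log2 fold change -0.40 ± 0.10 (SE), adjusted p = 0.0293), with CENPN, CENPQ, ZWILCH and KNTC1 also lower. SMC4 fell from 574 and 662 CPM to 429 and 411 CPM (log2 fold change -0.55 ± 0.09 (SE), adjusted p = 0.00692), NCAPG from 84.3 and 108 CPM to 59.8 and 74.9 CPM (log2 fold change -0.51 ± 0.14 (SE), adjusted p = 0.0415) and CDK1 from 224 and 247 CPM to 176 and 197 CPM (log2 fold change -0.33 ± 0.09 (SE), adjusted p = 0.0417), which was 0.04 after GC correction. ASPM and HMMR fell by 0.58 and 0.60. CCNB1 (-0.36), AURKA (-0.29), BUB1 (-0.27), NDC80 (-0.28), MKI67 (-0.23), TOP2A (-0.24), PLK1 (-0.16), BUB3 (-0.09), NCAPD2 (0.07) and CENPA (-0.08) did not pass, on the log2 scale. Of 44 other mitosis genes, 8 fell and 1 rose, and of 27 other kinetochore and centromere genes 5 fell and 2 rose. Over all genes, 6.49% fell and 5.29% rose. The count over the 55 was 7 without the clone C2 control library, 8 without the clone A5 mimic library and 31 without the clone A5 control library, and CENPK, CENPN, CENPE, SMC4, HMMR and G2E3 passed without any 1 of the 4.

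In Y537S cells the miR-301b mimic lowered 5 genes and raised none, where 2.34% of all genes fell and 1.23% rose, with a median of -0.28. With the block 41 fell and 3 rose, where 38.4% of all genes passed. Of the 55, 44 were lower in both clones, and the share of all genes lower in both is not given here. The 5 were CENPN, CCNA2, HMMR, GAS2L3 and G2E3. CENPN, which binds CENPA nucleosomes, fell from 132 and 136 CPM to 85.8 and 84.9 CPM (log2 fold change -0.68 ± 0.08 (SE), adjusted p = 0.0255). CCNA2, the S and G2 phase cyclin that holds a miR-301b site, fell from 144 and 126 CPM to 97.5 and 83.5 CPM (log2 fold change -0.60 ± 0.11 (SE), adjusted p = 0.04996). G2E3 fell from 73.6 and 65.6 CPM to 47.5 and 42.1 CPM (log2 fold change -0.66 ± 0.11 (SE), adjusted p = 0.0379) and GAS2L3 from 94.9 and 86.1 CPM to 59.6 and 61.8 CPM (log2 fold change -0.60 ± 0.09 (SE), adjusted p = 0.035). Mimic and control libraries did not overlap for any of the 5. CCNB1 missed narrowly, at 233 and 224 CPM with the mimic (log2 -0.54, adjusted p = 0.0502; 4.5e-16 with the block). CENPE (109 and 132 CPM, log2 -0.49), SMC4 (494 and 447 CPM, -0.43), TTK (54.6 and 51.2 CPM, -0.46), MAD2L1 (30.2 and 25.0 CPM, -0.54) and CDK1 (265 and 243 CPM, -0.33) did not pass without the block and passed with it. The count fell to 0 without either control library and to 2 without either mimic library, and GC correction left no gene past the test (26 lower and 3 higher with the block added, where 28.6% of all genes passed).

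In WT cells the miR-301b mimic lowered 3 genes and raised none, where 3.87% of all genes fell and 4.63% rose, and the median was -0.04, which turned to 0.05 after GC correction, against 0.00 and -0.03 over all genes. With the correction 1 gene fell and 1 rose, where 5.06% of all genes passed, and with block and correction 6 fell and 7 rose, where 11.4% of all genes fell and 6.29% rose. With the block 12 fell and 2 rose, where 28.2% of all genes passed. CENPN fell from 57.0 and 58.8 CPM to 39.5 and 38.1 CPM (log2 fold change -0.58 ± 0.09 (SE), adjusted p = 0.00819), CCNB1 from 94.4 and 100.2 CPM to 70.0 and 73.8 CPM (log2 fold change -0.45 ± 0.08 (SE), adjusted p = 0.0168) and CENPF from 345 and 357 CPM to 291 and 289.8 CPM (log2 fold change -0.28 ± 0.07 (SE), adjusted p = 0.0414). COL1A1 rose here to 71.5 and 68.9 CPM, and its part in the result was not tested. CENPN is thus lower with this mimic in each of the 3 genotypes, with no overlap. CENPE, at 45.8 and 34.1 CPM, lay below its control without passing (log2 -0.33; adjusted p = 0.0148 with the block), and CDK1, at 112 and 86.1 CPM, overlapped its control but passed as a rise of 0.30 after GC correction. The count was 13 without the clone D1 mimic library and 1 without the clone D4 control library. The response to miR-301b differed from that of WT cells for no mitotic gene in either mutant, where 0.00632% of all genes passed for Y537S and 0.0064% for D538G cells. At an unadjusted p under 0.05, edgeR gave 4 of the 55 and 343 of 15814 genes for Y537S, and 7 of the 55 and 478 of 15613 genes for D538G cells, and DESeq2 called 0 of the 55 in both. The differences lay below 0 for 52 of 55 genes in Y537S (median -0.17, against 0.01 over all genes) and for 54 of 55 in D538G cells (median -0.23, against 0.01), both against the same WT libraries. With the block 1 gene passed in D538G cells, where 0.147% of all genes did, and with block and GC correction 3 passed in each mutant, where 1.66% and 0.948% of all genes did.

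The miR-181c mimic changed few mitotic genes. In D538G cells only SMC4 passed, as a fall from 574 and 662 CPM to 481 and 464 CPM (log2 fold change -0.38 ± 0.08 (SE), adjusted p = 0.0184), where 3.95% of all genes fell and 5.58% rose. The median was -0.14, against -0.003 over all genes. Of the 55, 42 were lower in both clones, and the share of all genes lower in both is not given here. With the block 22 fell and 2 rose, where 29.3% of all genes passed (11 and 2 with GC correction added, where 17.7% did). SMC4 has no miR-181c site, and the 12 genes that have one had a median of -0.21, against -0.11 for the other 43. Over all genes with a 3′UTR the medians were -0.15 with the site and 0.04 without it. Neither difference was tested. Without the clone C2 control or mimic library no gene passed, and without the clone A5 control library 16 did.

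In WT cells, miR-181c lowered 2 and raised 2, where 8.28% of all genes fell and 8.1% rose, and 4 fell and 7 rose with the block, where 27.9% of all genes passed. SMC4 fell from 236 and 225 CPM to 194 and 191 CPM (log2 fold change -0.27 ± 0.07 (SE), adjusted p = 0.0256) and GAS2L3, which holds the site shown above, from 29.4 and 32.4 CPM to 24.5 and 24.3 CPM (log2 fold change -0.35 ± 0.10 (SE), adjusted p = 0.0427). ESPL1, the separase that cuts cohesin, rose from 59.2 and 62.2 CPM to 75.9 and 82.4 CPM (log2 fold change 0.37 ± 0.08 (SE), adjusted p = 0.0129), and CENPH from 4.77 and 4.27 CPM to 6.64 and 7.79 CPM (log2 fold change 0.67 ± 0.20 (SE), adjusted p = 0.0474). Each of the 4 lay outside its controls. No call held whichever library was left out: none passed without either control library and 1 without the clone D4 mimic library. After GC correction 4 rose and none fell, where 2.57% of all genes rose and 4.4% fell (8 and none with the block, where 6.03% and 8.17% did), and SMC4 and GAS2L3 were at -0.02 and -0.11. The response in D538G cells differed from that in WT cells for no mitotic gene, where 0.00646% of all genes passed, and 0 of the 55, against 453 of 15482 genes, had an unadjusted p under 0.05 in edgeR, while DESeq2 called 0 of the 55. The differences lay below 0 for 49 of the 55 (median -0.15, against 0.01 over all genes).

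With the let-7f inhibitor no mitotic gene passed, where 0.0% of 15140 genes passed in edgeR. At an unadjusted p under 0.05 there were 3 of the 55 and 786 of all genes, DESeq2 called 0, and the median was -0.01, and 0.06 after GC correction, against 0.00 and 0.04 over all genes. MAD2L1 had the smallest p, at 44.3 and 44.9 CPM with the inhibitor control and 34.6 and 31.3 CPM with the inhibitor (log2 -0.44 ± 0.09, adjusted p = 0.751), and both inhibitor libraries were below both controls. With the block 7 rose and 7 fell, where 11.2% of all genes passed (15 rose and 1 fell with GC correction added, where 9.23% of all genes rose and 3.73% fell), and MAD2L1 (adjusted p = 0.00029) was among those that fell. CENPE (128 and 124 CPM and 133 and 132 CPM) and PLK1 (173 and 150.1 CPM and 182 and 172 CPM) did not pass, and PLK1 overlapped its control. Of the 4 genes with a let-7f site, AURKB and AURKA overlapped their controls, and CDCA8 and ESPL1 were higher in both inhibitor libraries, with log2 fold changes of 0.17 and 0.34 that passed with the block (adjusted p = 0.0199 and 3.45e-06).

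CENPH was above the mimic negative control with every mimic, with no overlap in any of the 7 comparisons, but it was as high in the Y537S clones given the inhibitor negative control, at 22.9 and 16.5 CPM. In WT clones it was at 4.77 and 4.27 CPM in the control, 9.52 and 5.97 CPM with miR-301b, 6.98 and 7.53 CPM with miR-331 and 6.64 and 7.79 CPM with miR-181c, comparisons that share their control libraries. In Y537S clones it was at 13.3 and 12.4 CPM in the control, 25.1 and 19.4 CPM with miR-301b and 19.5 and 16.3 CPM with miR-331, and in D538G clones at 12.97 and 15.5 CPM in the control, 16.6 and 17.1 CPM with miR-301b and 18.9 ± 1.55 CPM (SD, n = 2) with miR-181c. The difference from the mimic control passed with miR-331 and miR-181c in WT cells, and with the block it also passed with miR-301b and miR-331 in Y537S cells, miR-301b in WT cells and miR-181c in D538G cells. Its transcript, 1354 bases at 42.2% GC, is close to the median of the 55 in GC content and shorter.

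Counts of several of these genes may hold reads of a neighbour, since the strand setting of the counting is not given in the sources used here. OIP5 and NUSAP1 overlap each other by 11798 bases on opposite strands. ZWILCH overlaps RPL4, which reached 1575 CPM, CENPN overlaps CMC2 and CCNA2 overlaps EXOSC9 by 578 bases. SMC4 overlaps IFT80 and TRIM59, and CENPA overlaps SLC35F6 by 16943 bases on the same strand.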

How the data were processed

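Poly-A RNA-seq libraries were prepared with a stranded kit, aligned to hg19 with HISAT2 and counted on UCSC Known Genes with featureCounts, and the deposited values are raw read counts per gene made by the authors. The strand and multi-mapping settings are not given in the sources used here. From the counts, TMM-normalised CPM were computed and groups compared with edgeR 4.0.16 in R 4.3.3 by the quasi-likelihood F test, after filterByExpr, with Benjamini-Hochberg adjustment over all genes and a threshold of 0.05. The 2 clones were treated as replicates. DESeq2 1.42.0, RLE size factors, no low-count filter, a lowess correction for transcript GC content (span 0.3), the clone as a block and leaving out each library were alternatives. The clones pair libraries by label: the correlation of clone differences between treated and control libraries was 0.422 to 0.460 in Y537S, 0.152 to 0.175 in D538G and 0.117 to 0.182 in WT cells, and genotype comparisons cannot be blocked. Replicate libraries differed by 11.2 to 48.3 in chi-square per gene, so none were duplicates. Where nothing says that libraries of 1 clone came from separate cultures, p-values measure the spread between these libraries.

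The 55 genes and all other lists were chosen with earlier results of these data known. Any of the 55 could be named, per-library values were given for a fixed set of 19 and for the largest rise and fall per comparison, and some others were added after their values were seen. Other genes are named only as FOXM1, MYBL2 or the largest change of a list. Transcript length, GC content and 3′UTRs came from GENCODE 44 lifted to GRCh37, matched for 21970 of 26364 genes (20651 by symbol and 1319 by older symbol). Scripts were tested on simulated data, and figures drawn with matplotlib 3.10.9 under Python 3.11.15.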

Additional observations from a re-analysis of the deposited data

Results flagged for a closer look

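The response to the miR-331 mimic differed between Y537S and WT cells for 11 mitotic genes, where 9.94% of all genes passed. The test was of the difference of both log2 fold changes (edgeR, adjusted p from 0.00882 to 0.0443). With GC correction 3 passed, CENPE, MKI67 and BIRC5, where 12.0% of all genes did. The calls also depended on single libraries. The difference, Y537S minus WT, was -1.33 for CENPE, -1.06 for ASPM, -0.90 for CENPK, -0.75 for G2E3, -0.71 for SMC4, -0.67 for MKI67, -0.64 for NUF2, -0.62 for KNTC1, -0.62 for CENPF and -0.48 for HMMR. It was 0.59 for BIRC5, which rose in Y537S cells.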

How the results depend on the processing

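All 55 genes were higher in Y537S than WT cells under every alternative run, and 53 to 55 in D538G cells. No gene passed for the miR-181c response of D538G against WT cells under any of them. The other counts of mitotic genes called moved with the settings, and the cause was not tested. With the clone as a replicate block the Y537S counts were 44 with miR-301b, 45 with miR-331 and 14 with the let-7f inhibitor. Those in D538G cells were 39 for miR-301b and 24 for miR-181c. Those in WT cells were 14 for miR-301b, 29 for miR-331 and 11 for miR-181c. The blocked count of differing responses was 25 for miR-331 and 1 for miR-301b in D538G cells. With block and GC correction these counts were, in the same order, 29, 38, 16, 30, 13, 13, 17, 8, 23 and 3, and 3 for the miR-301b response in Y537S cells. The block ended none of the single calls. With GC correction alone the count was 0 for miR-301b in both mutants and for miR-181c in D538G cells, 11 and 8 for miR-331 in Y537S and WT cells and 3 for its difference. In Y537S cells given miR-301b DESeq2 called 17, and it called 3 for miR-181c in D538G cells, 7 for miR-301b in WT cells and 16 for Y537S against D538G cells. With no filter on low counts these were 8, 12, 12 and 27, and 30 for miR-301b in D538G cells. RLE size factors gave 3 for miR-301b in Y537S cells. For DESeq2, no filter, RLE size factors and single libraries left out, the share of all genes called is not given here. Those counts therefore cannot be set against a background.

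Leaving out 1 library at a time, the count ranged from 0 to 2 (miR-301b in Y537S), 18 to 26 (miR-331 in Y537S), 7 to 31 (miR-301b in D538G), 0 to 16 (miR-181c in D538G), 1 to 13 (miR-301b in WT), 8 to 19 (miR-331 in WT), 0 to 3 (miR-181c in WT), 0 to 32 (Y537S against D538G) and 0 to 13 (the miR-331 difference). With 1 library left in a group, it was assumed to vary like the other group. With GC correction, without and with the block, CDK1 with miR-331 in Y537S cells turned to 0.22 and 0.23, SMC2 to 0.0357 and 0.0402, TOP2A to 0.0234 and 0.0219, and CDK1 with miR-301b in D538G cells to 0.0431 and 0.0381. With 2 clones a group, an exact permutation test cannot go below p = 0.333, so single genes were judged only by the fit over all genes.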
